A study of Mus musculus with 2 samples.

Results

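This account describes the E2F1 peaks that lay between genes, upstream of a transcription start site (TSS), in primary mouse hepatocytes. From the authors' peak list, a peak was kept if it was classed as upstream of a gene and was not also classed as promoter, inside a gene or in a 3' untranslated region. This left 382 of 5667 listed peaks, or 6.74% (exact Clopper-Pearson 95% interval 6.10% to 7.42%, over peaks), which named 362 genes. The hepatocytes, in primary culture from mice of strain C57Bl6J, had been infected with an adenovirus carrying E2F1 and were harvested after 36 h. The single ChIP record used an antibody to E2F1 and the single input record used none; both came from infected cells, and cells without the vector were not analysed here. The series text speaks of 2 replicates of 2 combined ChIPs each, but the list is not split by replicate, so no value below has an error between cultures and no test was made. Peaks are not replicates, and intervals cover counting over peaks only. No source used here states how many reads each library held, so the depth is unknown. A peak list measures binding, so it gives no check of the labelled cell type by expression of its markers.

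E2F1 is a transcription factor of the retinoblastoma pathway, known for switching on genes of S phase and DNA replication from sites close to their start. Regions between genes hold enhancers, which act on a start from a distance, and also starts of genes that an annotation may not list. In liver, E2F1 is also known as a regulator of lipid and glucose metabolism genes.

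The upstream peaks were weaker than promoter peaks, and few of them were strong. A strong one lay far outside the range of the others, near Maneal. The peaks with most tags were often named for genes that stand next to small nuclear RNA or transfer RNA genes. Gene lists that include the cell cycle, liver metabolism and hepatocyte identity were pooled. The pooled genes had an upstream peak about as often as all genes named in the peak list, but single lists differed.

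No mm9 genome was used here, so the sequence under the upstream peaks themselves is not shown. Shown instead are promoters of 3 genes that had both an upstream and a promoter peak, as examples of 3 cases: a stronger upstream peak at Taf12, nearly equal ones at Esyt1 and a stronger promoter peak at Stil. Each is the 250 bases before the start of the gene, from RefSeq, assembly GRCm38.p6, written 5' to 3' on the strand of the gene. Capitals mark a match to one of 4 forms of the E2F site, TTTCCCGC, TTTCGCGC, TTTGCCGC and TTTGGCGC, searched on both strands. The forms differ from each other within the same 8 letters, so that no position matches more than 1 of them on a strand. The Taf12 window is chr4:132274125-132274374 (plus strand), that of Esyt1 chr10:128525860-128526109 (minus strand) and that of Stil chr4:114999868-115000117 (plus strand).
Taf12: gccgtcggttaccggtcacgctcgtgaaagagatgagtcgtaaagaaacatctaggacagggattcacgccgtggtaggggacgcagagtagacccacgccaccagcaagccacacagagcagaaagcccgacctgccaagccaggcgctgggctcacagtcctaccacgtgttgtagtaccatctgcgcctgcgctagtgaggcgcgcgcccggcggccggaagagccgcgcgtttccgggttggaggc
Esyt1: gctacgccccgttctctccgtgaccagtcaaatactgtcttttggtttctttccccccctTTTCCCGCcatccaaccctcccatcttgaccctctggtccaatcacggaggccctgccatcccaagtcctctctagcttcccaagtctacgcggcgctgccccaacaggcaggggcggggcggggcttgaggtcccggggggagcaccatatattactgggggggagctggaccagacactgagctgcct
Stil: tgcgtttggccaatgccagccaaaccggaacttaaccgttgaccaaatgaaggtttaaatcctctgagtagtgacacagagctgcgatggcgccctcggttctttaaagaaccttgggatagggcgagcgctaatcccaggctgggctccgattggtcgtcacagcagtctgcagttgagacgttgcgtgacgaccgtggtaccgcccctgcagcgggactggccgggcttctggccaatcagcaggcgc

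A form of this site stood in 1.86% of all 32851 promoter windows of that table and in 6.85% of the 2903 windows of genes with a listed promoter peak. For genes with an upstream and a promoter peak the count was 2 of 50 windows (4.0%, exact 95% interval 0.488% to 13.7%), at Esyt1 and Zfp687. For genes with an upstream peak and no promoter peak it was 9 of 296 (3.04%, interval 1.40% to 5.69%). A match is a description of letters, and windows of 1 gene can overlap. At Esyt1 the match TTTCCCGC began at position -190 from the start. Among the 9 windows without a promoter peak were those of Tmpo and Ptprk. Windows without a match show only that these letters are not in them.

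The strength of the upstream peaks was close to that of peaks past gene ends. Fold is the authors' ratio of ChIP tags to the background expected from the input, and tags are reads counted in the called region. The median fold of the upstream peaks was 4.625 (quartiles 3.67 and 5.99, range 2.52 to 57.58), against 4.93 in the whole list. It was 4.50 in the 339 downstream peaks, 3.91 in the 2288 peaks inside genes and 6.49 in the 2625 promoter peaks. Upstream peaks thus lay between the intragenic and the promoter peaks, with 95% order-statistic intervals of the medians of 4.44 to 4.85, 3.85 to 3.97 and 6.34 to 6.67 in that order. A fold of at least 10 was reached by 33 upstream peaks, or 8.64% (exact interval 6.02% to 11.9%), against 12.8% of all listed peaks. The same share was 7.67% in downstream, 3.67% in intragenic and 22.0% in promoter peaks.

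**Figure D1:**
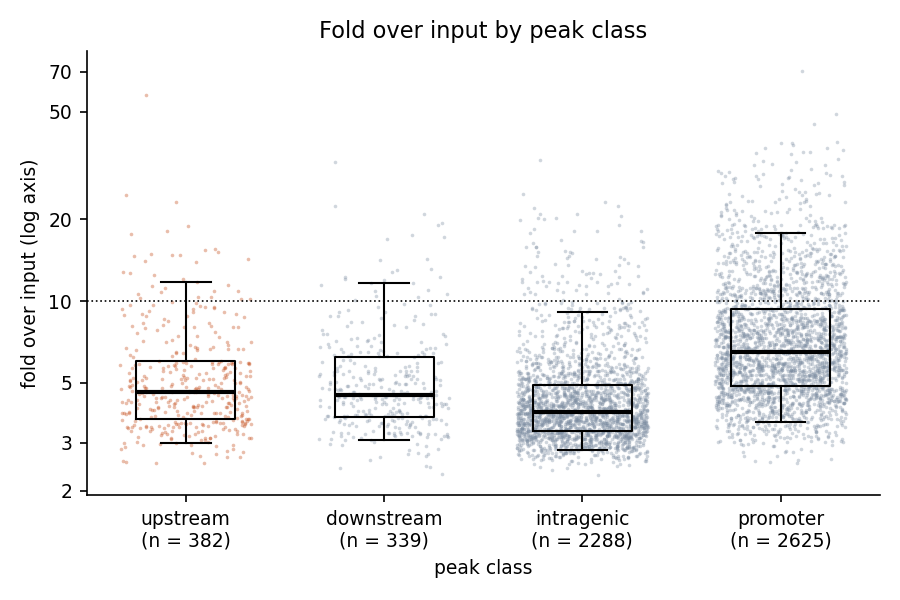
Fold over input (log axis) of each peak, by class; boxes give quartiles and median, whiskers the 5th and 95th percentile, and the dotted line a fold of 10. Upstream peaks (median 4.625) sit near downstream peaks (4.50) and below promoter peaks (6.49).

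By tags, upstream peaks had a lower median and upper quartile than the whole list, but a larger share with at least 300. The median was 130 tags in a region of 1736 bp, against 149 tags in 1914 bp over the whole list. The upper quartile was 207 against 221 tags. At least 300 tags were held by 48 upstream peaks, or 12.6%, beside 9.46% of all listed peaks, 11.5% of downstream and 13.3% of promoter peaks. The authors' false discovery rate was at most 1% in 116 upstream peaks (30.4%), beside 39.8% of all listed peaks. Among the 48 peaks with 300 tags or more, 33 had a fold below 10 and 18 a fold below 5. Across the 382 peaks, tags and fold had a Spearman rho of 0.12, and across the 2625 promoter peaks 0.36; these are descriptions over peaks of the same libraries.

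Maneal, a relative of an endomannosidase that trims glycoproteins, had the strongest of the upstream peaks. It lay on chromosome 4 from 124546515 to 124546815 (mm9, as are all peak positions here), with the window edge 7099 bp before the start. Its fold of 57.58, with 417 tags in a region of 1052 bp, was the second highest of all 5667 peaks. The next listed peak, inside Mtf1, was 59542 bp away. The second strongest upstream peak, on chromosome 16 from 56064460 to 56064760, lay 10761 bp from Senp7, a protease that removes SUMO. Its fold was 24.57 and it held 325 tags. A peak 5442 bp from Ncoa3, a coactivator of nuclear receptors, had a fold of 23.15 and 311 tags (chromosome 2, 165812393 to 165812693). Senp7 and Ncoa3 each also had a weak peak inside the gene, with folds of 3.42 and 2.95.

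The next folds were below 20. Tff3, a secreted trefoil peptide of mucous surfaces, had a fold of 18.84 at 4116 bp. The predicted gene Gm10775 had 18.18 at 18031 bp, and Gm5218, a pseudogene in RefSeq, had 17.75 at 12088 bp. Fam57b had a fold of 15.59 at 7546 bp, the zinc finger gene Zfp324 15.49 at 16023 bp and Cdc20b, a relative of the mitotic activator Cdc20, 15.17 at 2943 bp. Tmpo, which codes for lamina-associated polypeptides of the nuclear envelope, had 14.90 at 9753 bp. These genes share no single known function.

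From rank 11 to 20 the folds ran from 14.79 down to 12.09. Pik3ap1, an adaptor of phosphoinositide 3-kinase, had 14.79, and Was, an actin regulator of blood cells, 14.78. Wdr45, a gene of autophagosome formation, had 13.88, and Psmc1, an ATPase subunit of the proteasome, 12.70. Rgma, a repulsive guidance molecule, had 12.48. The zinc finger genes Zfp872 and Zfp628 had 14.68 and 12.76, and the clone gene 2810405K02Rik had 14.07. The predicted gene Gm16382, matched in RefSeq to the pseudogene Rpl31-ps17, took the remaining places with 14.25 and 12.09. At the low end stood Gm4070 with a fold of 2.52, Il7, a cytokine of lymphocytes, with 2.53 and the olfactory receptor gene Olfr1082 with 2.55. Gm4070 reached 398 tags at that low fold, while Il7 had 127.

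Distance made little difference to strength. The window edges lay 2001 to 19992 bp from the start, with a median of 8671 bp and quartiles of 5319 and 13468 bp. Up to 5000 bp there were 85 peaks, or 28.3 per kb of distance, and from 5000 to 10000 bp 139, or 27.8 per kb. The density was 18.0 per kb from 10000 to 15000 bp and 13.6 from 15000 to 20000 bp. Each peak is named for its nearest gene, and how the spacing of genes bears on these densities was not tested. The median fold was 4.75, 4.72, 4.61 and 4.41 in the 4 ranges in that order, within each other's order-statistic intervals (4.20 to 5.34 in the nearest, 4.03 to 5.31 in the farthest). Over the 382 peaks the Spearman rho of fold and distance was -0.02.

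**Figure D2:**
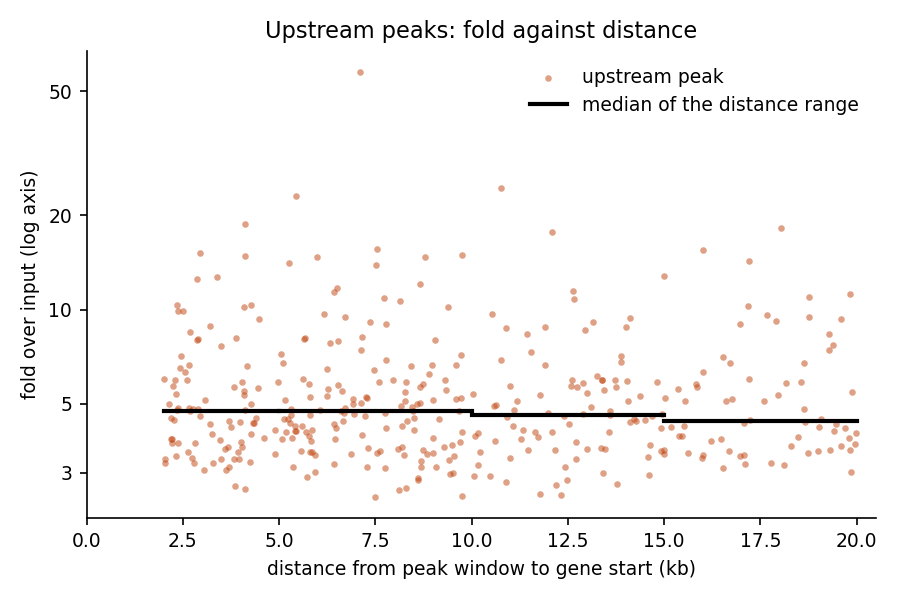
Fold over input (log axis) of the 382 upstream peaks against the distance in kb from the peak window to the gene start; black lines are medians of the 4 distance ranges. The medians run from 4.75 to 4.41, and the peak near Maneal (57.58) stands above all others.

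The edges of the class followed the authors' cut between promoter and upstream. The nearest upstream peaks were at Nfatc4, a calcium-regulated factor, at 2001 bp (fold 5.99), the phosphatase gene Ptprk at 2027 bp (3.33) and the kinase gene Tec at 2029 bp (3.22). Ankrd33 at 2139 bp (4.98) and Tob2, an antiproliferative gene, at 2183 bp (4.51) came next. Just outside, in the promoter class, were Olfr124 at 1980 bp (4.28), 4930412O13Rik at 1944 bp (5.01) and the p53 relative Trp73 at 1925 bp (8.15). At the far end stood 1700061I17Rik at 19992 bp (4.03), Chd8 at 19956 bp (3.70) and Pdp2, a phosphatase of pyruvate dehydrogenase, at 19894 bp (5.45). Fam124a (3.01) and Arl4d (11.20) followed at 19847 and 19835 bp. Another 350 peaks were upstream of a gene but were left out, 283 because they lay inside another gene and 67 because they lay at another promoter.

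Most genes with an upstream peak had no other listed peak. Of the 362 genes, 242 had this peak alone, 49 also had a peak inside the gene, 15 one past the end and 50 one at the promoter. The same count was not made for genes of the other peak classes or for all 5587 named genes. Having no other listed peak is thus not shown to be particular to genes with an upstream peak. By peaks, 52 of 382 (13.6%, exact interval 10.3% to 17.5%) had a gene with a promoter peak of its own. This share was 15.4% for intragenic and 18.9% for downstream peaks. The median fold of the upstream peak was 4.615 where the promoter had a peak and 4.625 where it had none.

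Within these 52 pairs the promoter peak had the higher fold in 35 and the upstream peak in 17. The median fold was 5.745 for the promoter and 4.615 for the upstream peaks, with a median ratio of upstream to promoter of 0.792. By tags the upstream peak was higher in 22 pairs. Folds of both peaks were barely related across genes (Spearman rho 0.09 over 52 pairs, in which Kif2c and Trim27 each count 2 times). The ratio was 2 or more in 4 pairs and 0.5 or less in 15.

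The upstream peak was the stronger one at Zfp324, with a fold of 15.49 and 282 tags against 3.38 and 101 at the promoter. Zfp628, another zinc finger gene, had 12.76 against 5.36. At Taf12, a subunit of the general factor TFIID, the upstream peak (chromosome 4, 131825723 to 131826023) had a fold of 10.33 with 615 tags. The promoter peak of Taf12, whose window held the TSS, had 5.48 with 192 tags and lay 4057 bp away. Phrf1 had 9.47 against 3.67 and the kinase gene Rock2 7.69 against 3.69. These 5 genes had the upstream peak ahead in both fold and tags.

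At other genes both peaks were alike or the promoter led. Esyt1, a membrane tether of the endoplasmic reticulum, had 9.65 upstream and 9.72 at the promoter, with 177 and 147 tags. Chac1, which degrades glutathione, had 8.58 and 11.06, and Bahcc1 had 8.47 and 13.49. Kif2c, a kinesin that takes microtubules apart at centromeres, had a promoter fold of 29.45 with 451 tags and 2 upstream peaks. Those upstream peaks had folds of 9.15 with 610 tags at 7348 bp and 9.34 with 442 tags at 19590 bp. Stil, a centriole duplication gene, had 3.07 upstream against 13.06 with 419 tags at the promoter, and Arc, a synaptic gene, 3.54 against 17.35; both were chosen after their values were seen.

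**Figure D3:**
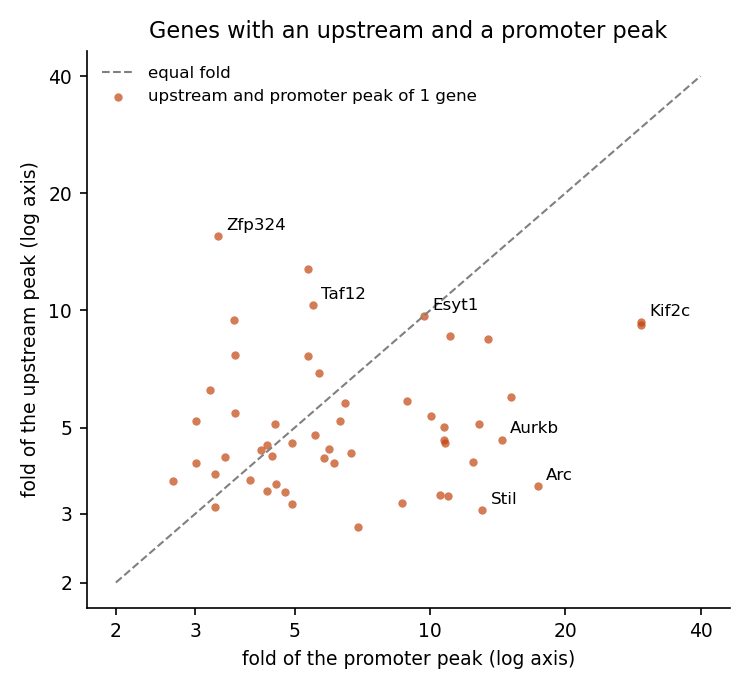
Fold of the upstream peak against fold of the promoter peak of the same gene (both log axes), 52 pairs at 50 genes; the dashed line marks equal fold. Points lie above the line in 17 pairs, such as Zfp324, and below it in 35, such as both Kif2c pairs.

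Several upstream peaks of 1 gene occurred together. Of the 362 genes, 19 had 2 or more upstream peaks, 39 peaks in all, and only Gm16382 had 3. The Gm16382 peaks lay on chromosome 12 at 8672, 12639 and 17216 bp, with folds of 12.09, 11.47 and 14.25 and with 484, 631 and 585 tags. They bear consecutive serial numbers of the peak caller, 3737 to 3739. Parp16, an ADP-ribosyltransferase of the endoplasmic reticulum, had folds of 10.80 and 9.21 with 648 and 573 tags. Arl4d, a small GTPase, had 11.20 and 8.17 with 827 and 568 tags. In these 3 genes and in Kif2c all upstream peaks were high in tags.

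At other genes the upstream peaks differed more, or were weaker. Tmpo had 14.90 and 5.79, Wdr45 13.88 and 3.47, Zfp869 9.70 and 3.89, and Ercc1, a nuclease subunit of DNA excision repair, 10.25 and 7.34. Elovl2, an elongase of polyunsaturated fatty acids, had 7.79 and 3.11, and the chromatin remodeller gene Chd8 5.49 and 3.70. Trim27, a ubiquitin ligase, had 5.03 and 4.66 with 314 and 574 tags. Folds of all peaks were below 6 at Csrnp1, Slc26a3, Insc, Rasa1, Tnrc18, Zfp850, Olfr1393 and 1700011L22Rik. Another listed peak of any class lay within 20000 bp of 125 upstream peaks (32.7%), beside 24.5% of downstream, 24.5% of intragenic and 23.5% of promoter peaks. The nearest listed peak was a promoter peak for 167 upstream peaks, an intragenic one for 122 and another upstream one for 58.

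The upstream peaks with most tags were often named for genes that neighbour short RNA genes. Small nuclear RNAs are parts of the spliceosome, and transfer RNAs bring amino acids to the ribosome. The comparison was chosen after the values were seen. For 253 of the 382 peaks, the next gene on the upstream side of the named gene could be read from the gene order of RefSeq assembly GRCm38.p6. That gene coded for a short RNA in 23 peaks at 19 genes, or 9.09% (exact interval 5.85% to 13.3%): 11 transfer RNAs, 9 small nuclear RNAs, 2 small nucleolar RNAs and 1 small cytoplasmic RNA. The same share was 3.45% for promoter peaks, 4.74% for intragenic, 4.72% for downstream peaks and 2.59% for all 14650 protein-coding genes whose upstream side could be read. Positions were not carried between assemblies, so whether a peak lies on such an RNA gene was not tested.

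The tag counts differed between these groups. The median was 361 tags (range 78 to 827) in the 23 peaks with a short RNA gene next, and 120.5 (28 to 648) in the 230 with another gene next. The median fold was 5.15 and 4.43, and the median region 2678 and 1686.5 bp long. Of the 33 peaks with at least 300 tags and a known neighbour, 14 (42.4%) had a short RNA gene next, against 9 of 220 (4.09%) with fewer tags. With the next 3 genes considered, the counts were 19 of 33 (57.6%) and 34 of 220 (15.5%). Several of these peaks share a neighbour, so they are not independent of each other.

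The peak of most tags, 827 with a fold of 11.20, lay 19835 bp from Arl4d on chromosome 11 from 101506719 to 101507019. The gene next to Arl4d is Rnu2-10, a U2 small nuclear RNA gene. The nearest listed peak, 3131 bp away and named for Rdm1 as a downstream peak, had a fold of 10.90. The peak at Tmpo with 756 tags, on chromosome 10 from 90644513 to 90644813, is named for a gene next to the transfer RNA gene n-TDgtc16. Taf12, with 615 tags, stands next to Rnu11, the gene of U11 small nuclear RNA, and Kif2c, with 610 and 442 tags, next to the small nuclear RNA gene Gm25099. Trim27 stands next to the transfer RNA gene n-TLcaa4. Parp16 has a long non-coding RNA gene next and Rnu5g, a U5 small nuclear RNA gene, among its next 3. For Gm16382 the neighbour could not be read. At Kif2c the promoter had the higher fold but tags were highest at the nearer upstream peak.

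Not all peaks named for genes next to a short RNA gene were strong. Aqp7, a glycerol channel, had 87 tags and a fold of 9.86 next to a small nuclear RNA gene. Pcolce2, a gene of collagen processing, had 78 tags and a fold of 3.59 next to a small nucleolar RNA gene. Nemf, next to the small cytoplasmic RNA gene Rn7s2, had 224 tags and a fold of 3.50. Conversely, the upstream peak of highest fold, at Maneal with 417 tags, had the protein-coding gene Epha10 next, which is itself named in the peak list. Senp7 had the protein-coding gene Trmt10c next, which is not named in the peak list, but the short RNA gene Gm22422 among its next 3.

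**Figure D4:**
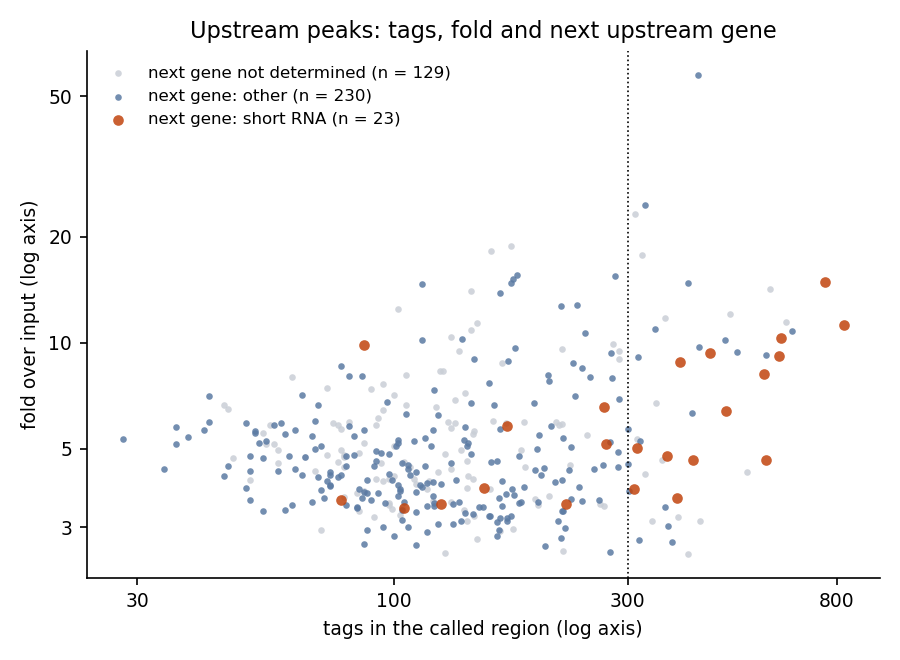
Fold over input against tags in the called region (both log axes) for the 382 upstream peaks, coloured by the gene next to the named gene on its upstream side; the dotted line marks 300 tags. Of the 23 peaks with a short RNA gene next, 14 lie at 300 tags or more.

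Pooled genes of known E2F1 pathways and of liver function had upstream peaks at a share near that of all named genes. Of 494 genes in 20 lists, 238 were named by some listed peak, 163 by a promoter peak and 13 by an upstream peak. These 13 were 5.46% of the 238 (exact interval 2.94% to 9.16%), and the 362 genes with an upstream peak were 6.48% of all 5587 named genes. The share pools all lists, and single lists differed, with 2 of 9 named genes for glycolysis and 0 of 21 for DNA repair. The 13 upstream peaks had folds of 3.02 to 7.64 with a median of 4.47, near the 4.625 of all upstream peaks. A fold of 10 was reached by 0 of the 13, beside 8.64% of all upstream peaks. Of the lists, 10 of 20 had no such gene. They follow with the number of their genes named by any peak. These were DNA repair (21), apoptosis (10), cholesterol (8), fatty acid oxidation (10) and insulin signalling (12). The others were secreted hepatocyte proteins (4), drug and bile acid metabolism (7), histones (5), circadian clock (8) and markers of other liver cells (0). The last list could thus have none, and an absence from lists with few named genes says little. Among the lists of cell division, those of E2F and pocket proteins, of G1/S control, of DNA synthesis and of mitosis had 1 gene each with an upstream peak. Ccnd1, the gene of cyclin D1, had the highest fold of the 13, namely 7.64 with 95 tags at 3489 bp (chromosome 7, 152129264 to 152129564). It also had a peak of 5.35 in the promoter class at 1600 bp, 1588 bp from the upstream one.

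Rfc2, a subunit of the clamp loader of replication, had 6.90 with 133 tags at 10756 bp, and 5.67 with 201 tags at its promoter. Aurkb, the mitotic kinase Aurora B, had 4.66 with 352 tags at 7742 bp, and 14.45 with 276 tags at its promoter. E2f2, an activator E2F, had 3.44 with 121 tags at 4889 bp and no other listed peak. Of these 4 division genes, Ccnd1 and Rfc2 had the higher fold upstream, and Aurkb at the promoter.

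The upstream peaks of the genes in the metabolic lists had folds from 3.02 to 5.08. Metabolic genes outside these lists are not covered by this range. Eno1 and Gpi1, enzymes of glycolysis, had 5.08 with 230 tags at 15533 bp and 3.13 with 216 tags at 3697 bp. G6pc, the glucose-6-phosphatase of glucose release, had 4.47 with 116 tags at 5234 bp, and the glucagon receptor gene Gcgr 3.58 with 51 tags at 3588 bp. Fads1, a fatty acid desaturase, had 4.05 with 118 tags at 13557 bp and 6.11 with 210 tags at its promoter. Tdo2, which starts tryptophan breakdown, had 3.02 with 362 tags at 5926 bp. The authors' false discovery rates of G6pc, Gcgr, Fads1 and Tdo2 were 8.14%, 7.82%, 7.77% and 7.63%, near the highest in the list, 8.57%.

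Among factors of hepatocytes, Onecut1, also known as hepatocyte nuclear factor 6, had 5.52 with 145 tags at 13440 bp. Prox1, a homeobox factor of early liver, had 3.85 with 157 tags at 5067 bp and a peak of 4.16 inside the gene. The immediate early gene Fos had 5.80 with 81 tags at 18177 bp and 6.46 with 74 tags at its promoter. Upstream peaks at all 3 factors were thus below a fold of 6, as were most of the 382 upstream peaks, whose upper quartile was 5.99.

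The upstream peaks were spread over all chromosomes. Their share of the listed peaks of a chromosome ran from 3.45% on chromosome 17 (10 of 290) to 10.8% on chromosome 7 (43 of 400, exact interval 7.89% to 14.2%), leaving out chromosome Y with 2 of 4. Chromosome 7 held 8 of the 33 upstream peaks with a fold of at least 10, and chromosome 12 held 4, of which 3 were those of Gm16382. Chromosome X had 5 upstream peaks, at Was, Wdr45, Zcchc13 and 1700054O13Rik, with folds from 3.47 to 14.78.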

How the data were processed

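The data are 1 list of peaks from E2F1 ChIP against input, 1 record each. Reads were aligned with Bowtie2 (2.1.0) to mm9, per the submitters' processing notes. MACS called the peaks, per the file headers. No source used here gives its version, its settings or the way peaks were chosen for the list, whose serial numbers skip 13240 values. The deposited values are a count of tags for each called region, the height of the pileup signal, the fold (a ratio to the background expected from input), a score of 10 times the negative log10 of p, and the false discovery rate in percent. Each describes its own peak and served to describe and rank peaks within the list. A further deposited column, explained nowhere, was not used.

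Rows were grouped by peak. A peak outside the upstream class was counted as promoter, then intragenic, then 3' untranslated, then downstream if it had several classes. Distances are the authors', from a window of 301 bp around the summit, and positions count from 1. Whether a promoter had a peak follows the authors' class. Shares have exact Clopper-Pearson 95% intervals and medians exact order-statistic intervals, over peaks (Python 3.11.15, pandas 2.3.3, scipy 1.17.1); the code was tested on simulated data. No test was run.

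Of the 382 peaks, 380 matched a RefSeq gene of GRCm38.p6 by symbol or synonym. Strand came from the RefSeq promoter table, and 253 had a known strand and no gene overlapping the start; only names, biotypes and gene order were used. Peaks, gene lists and comparisons were chosen with earlier results of these data known. Named are the 20 peaks of highest fold, the 10 with most tags, the 5 nearest and 5 farthest, those at listed genes, genes with several, the 10 strongest with a promoter peak and the 3 weakest; the rule's part on peaks upstream of 2 genes found none. Alternatives were stricter thresholds, a distance minimum, autosomes alone and other definitions of a promoter peak and of a strong peak.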

Additional observations from a re-analysis of the deposited data

How the results depend on the processing

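Each alternative changed 1 choice. Of 31 results under alternatives, 17 stayed within the interval of the value (for counts, within 1.5 times) and 14 moved. With a false discovery rate of at most 1%, 116 upstream peaks were left, with a median fold of 8.11, 28.4% at a fold of at least 10, 8.62% with a promoter peak at the gene and 4 at listed genes. With a score of at least 100 these were 135 peaks, 7.41, 24.4%, 8.89% and 5; both settings keep the stronger peaks by construction. The share of strong peaks was 42.7% at a fold of at least 5 and 2.36% at 15. Counting intragenic peaks of the gene with promoter peaks gave 23.8%. The share with a short RNA gene rose to 20.9% with the next 3 genes, an alternative added after seeing the data. A wider window raises this share in every set. With the next 3 genes it was 11.6% for promoter, 14% for intragenic and 12% for downstream peaks. For all protein-coding genes whose upstream side could be read it was 9.43%. Upstream entries alone and the nearest gene only could change nothing, since all 382 peaks had 1 gene row and 0 had a downstream row. Their results count among the 17 but tell nothing about stability. A start at least 5000 bp away, autosomes only and promoter peaks by window edge within 850 bp moved none of their results past these limits. These results were counts, medians and shares of upstream peaks. At 5000 bp or more, 297 peaks were left, and their share of the list, 5.24%, was below the interval of 6.10% to 7.42%, since the setting removes nearer peaks. No paired analysis was possible because the list is not split by replicate. Depth per library is unknown, so a gene without a listed peak is not shown to be unbound.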

Other observations

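Gene families were defined by symbol, after the values were seen. Olfactory receptor genes, best known for odour detection in the nose, were named by 12 upstream peaks at 11 genes. These were 48.0% of the 25 listed peaks at such genes (exact interval 27.8% to 68.7%), and 0 of the 12 reached a fold of 10, beside 8.64% of all upstream peaks. Their median fold was 3.64, with the highest, 5.15, at Olfr341 and 4.88 at Olfr1393. Olfactory genes made up 3.14% of upstream and 0.441% of all listed peaks.

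Zinc finger genes named Zfp were at 20 upstream peaks of 18 genes, 5.24% of upstream and 2.49% of all listed peaks. Their median fold was 4.055, but 4 of the 20 reached a fold of 10, beside 8.64% of all upstream peaks. These were Zfp324 (15.49), Zfp872 (14.68), Zfp628 (12.76) and Zfp541 (10.93). Predicted genes named Gm were at 19 upstream peaks, 4.97% of upstream and 2.42% of all listed peaks. Of the 19, 5 had a fold of at least 10, beside 8.64% of all upstream peaks. All upstream peaks of Gm16382 were among these 5, so they are not independent of each other. Clone genes named Rik were at 15, or 3.93% of upstream and 5.86% of all listed peaks. Carrier genes named Slc were at 9, or 2.36% of upstream and 1.99% of all listed peaks, with a median fold of 4.95. A fold of 10 was reached by 0 of these 9, beside 8.64% of all upstream peaks.

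For 114 of the 253 upstream peaks with a known neighbour, the direction of that neighbour was unknown. Neighbours pointing away from the named gene (head to head) were found for 60 upstream peaks, and neighbours in the same direction for 79. The median fold was 4.915 and 4.39. A fold of at least 10 was reached by 7 of the 60 and 4 of the 79, beside 8.64% of all upstream peaks. The counts are small, and whether direction bears on fold was not tested.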
